A study of Mus musculus with 3 samples.

Results

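CC chemokine ligands were followed in macrophages that met a bacterial stimulus again after a first exposure and a rest. The 10 genes described are Ccl2, Ccl3, Ccl4, Ccl5, Ccl6, Ccl7, Ccl9, Ccl12, Ccl17 and Ccl22, of 55536 annotated genes in the tables. They were taken by name, and each symbol was matched to its gene identifier through the transcript tables. All 3 libraries belong to 1 group. The cells were C57BL/6J bone-marrow-derived macrophages, primary cells grown from mouse marrow. Lipid A, the part of lipopolysaccharide that Toll-like receptor 4 senses, was given at 100 ng/ml for 12 h and washed out for 12 h. The same 100 ng/ml dose then followed, for 40 min. Age and sex were not collected, per the labels. Libraries were made from total RNA of the cytosolic fraction after ribosomal RNA depletion. Untreated cells and other fractions were not analysed here, so every value is a level after this treatment and not a response to it. The libraries carry biological replicate numbers 1 to 3 and a common donor label. Whether they came from separate animals is not given, so the spread between them may be partly technical.

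CC chemokines are small secreted proteins named for 2 adjacent cysteines near the start of the mature protein. They bind G protein-coupled CC receptors on leukocytes and are held in tissue by proteoglycans, and the resulting gradients guide cell movement. Activated macrophages are a known source of many of them. Ccl3, Ccl4 and Ccl5 attract monocytes and T cells, and Ccl3 and Ccl5 act on Ccr1. Ccl2, Ccl7 and Ccl12 draw monocytes through Ccr2. Ccl6 and Ccl9 are rodent ligands of Ccr1, and Ccl17 and Ccl22 are ligands of Ccr4 on T cells.

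The 10 genes resemble each other in sequence, which bears on how reads are shared out among them. The stretches that follow are 60 bases of coding sequence, 5′ to 3′, from the main coding transcript in GENCODE annotation M21 of the mouse genome, with the codons of the cysteine pair in capitals. They are shown for the 8 chromosome 11 genes because these sit in clusters of related neighbours, and because the motif that names the family is the part they share.
Ccl5: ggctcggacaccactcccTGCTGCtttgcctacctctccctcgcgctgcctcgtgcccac
Ccl3: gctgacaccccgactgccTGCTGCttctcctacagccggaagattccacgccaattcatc
Ccl4: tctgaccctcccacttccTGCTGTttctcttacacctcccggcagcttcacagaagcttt
Ccl2: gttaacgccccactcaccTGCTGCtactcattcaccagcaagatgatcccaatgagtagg
Ccl7: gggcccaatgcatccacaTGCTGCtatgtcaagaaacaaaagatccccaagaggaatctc
Ccl12: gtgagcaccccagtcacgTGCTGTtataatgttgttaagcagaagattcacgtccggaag
Ccl6: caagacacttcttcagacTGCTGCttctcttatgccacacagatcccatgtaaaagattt
Ccl9: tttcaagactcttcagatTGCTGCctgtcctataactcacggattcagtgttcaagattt

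Counted in codons from the start codon, the pair sits at 33 and 34 in Ccl5, Ccl7 and Ccl12 and at 34 and 35 in Ccl2, Ccl3 and Ccl4. It comes later in Ccl6, at 50 and 51, and in Ccl9, at 57 and 58. In Ccl22 it is at 36 and 37 and in Ccl17 at 43 and 44. Over the 45 pairs of genes the coding sequences were 57.7% to 74.2% identical, with a median of 62.7%. Identity was taken over the bases aligned without gaps, which can be fewer than the coding sequence holds. The highest were Ccl2 and Ccl4, at 74.2% over 271 bases, and Ccl2 and Ccl3, at 74.1% over 274, which are not in the same cluster. Among neighbours in a cluster, Ccl2 and Ccl7 shared 73.4%, Ccl3 and Ccl4 71.4%, and Ccl6 and Ccl9 70.7%. The longest run of bases that 2 of the main transcripts share exactly was 25, in the 3′ UTRs of Ccl6 and Ccl9, and the median over pairs was 10. The gene tables gave whole expected counts, within 0.005, for the 9 of these genes with a mean of 10 or more counts, in all 3 libraries, against 68.8% of 14038 annotated genes with such a mean. A whole value is what a gene has when no read is divided between it and another gene.

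Of the 10 genes 9 were detected, meaning that no library was below 1 TPM, where 41.4% of 22015 nuclear protein-coding genes were. TPM is a level per transcript length, scaled to the total of the library, and can be compared between genes. The 10 genes made up 2.12% ± 0.0951 (SD, n = 3) of the TPM on nuclear protein-coding genes. They took 0.395% ± 0.0293 of the counts on annotated genes, which numbered 38197192 in replicate 1, 46327891 in replicate 2 and 38685666 in replicate 3. Ccl5 alone was 73.2%, 71.4% and 80.5% of the summed TPM of the 10 genes. Macrophage markers were detected for 8 of 8 genes, with a summed level of 4071 to 5638 TPM. No gene was detected among 9 T and NK cell markers, 5 B cell markers, 6 neutrophil markers, 6 dendritic cell markers, 6 mast cell and eosinophil markers and 6 stromal and endothelial markers. The summed level of each of these lists was at most 1.92 TPM in any library. In such bulk samples fewer cells of a type and less RNA per cell cannot be told apart.

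**Figure D1:**
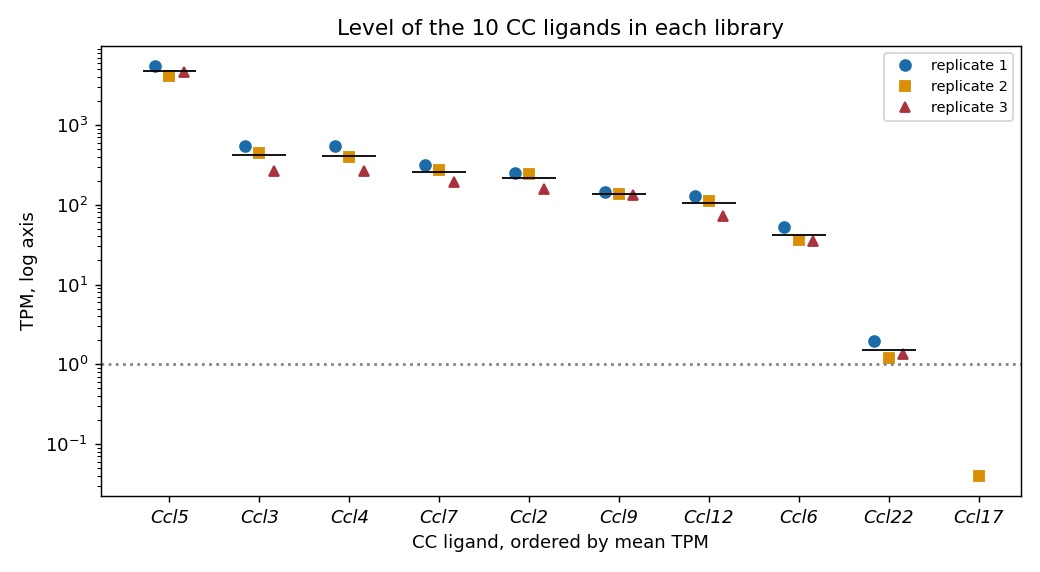
Level of each CC ligand in TPM on a log axis, ordered by mean. Points are libraries, horizontal lines are means of 3 libraries, and the dotted line marks 1 TPM. Ccl17 was at 0 in replicates 1 and 3, which a log axis cannot show, and its mean is not drawn.

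Among Ccl3, Ccl4 and Ccl5, Ccl5 stood far above the others. Ccl5 (ENSMUSG00000035042.2, chromosome 11, 83525778 to 83530518 in mm10, minus strand) is a chemoattractant of T cells and monocytes that macrophages release late in an inflammatory response. It had 5425 TPM in replicate 1, 4104 in replicate 2 and 4612 in replicate 3, a mean of 4714 ± 666 (SD, n = 3). It ranked 4 among nuclear protein-coding genes by mean TPM. Between 93692 and 103761 expected counts lay behind each value. Its 3 libraries did not overlap in level with those of any other CC ligand.

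Ccl3 (ENSMUSG00000000982.5, chromosome 11, 83647844 to 83649355, minus strand) and Ccl4 (ENSMUSG00000018930.3, 83662584 to 83664683, plus strand) encode the macrophage inflammatory proteins 1 alpha and 1 beta. Ccl3 had 549, 445 and 264 TPM in replicates 1, 2 and 3. Ccl4 had 551, 400 and 263 TPM in the same order. Replicate 3 was lowest for both, and in replicates 1 and 3 the genes stood at nearly the same level. The means were 419 ± 145 TPM for Ccl3, at rank 68, and 405 ± 144 TPM for Ccl4, at rank 70. The log2 ratio of Ccl3 to Ccl4 was 0.05 ± 0.09 (SD, n = 3) and was above 0 in 2 of 3 libraries, so the 2 neighbours in the order did not differ beyond their spread. Ccl5 exceeded Ccl3 by a log2 ratio of 3.54 ± 0.51, and this ratio was 3.30, 3.20 and 4.12 in replicates 1, 2 and 3. The gap was widest in replicate 3, where Ccl3 was low and Ccl5 was not.

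Of the ligands of Ccr2, Ccl7 and Ccl2 came next in the order and Ccl12 came below Ccl9. Ccl7 (ENSMUSG00000035373.2, chromosome 11, 82045712 to 82047525, plus strand), monocyte chemoattractant protein 3, had 312, 272 and 195 TPM in replicates 1, 2 and 3, a mean of 260 ± 59.4. Ccl2 (ENSMUSG00000035385.5, 82035571 to 82037453, plus strand), monocyte chemoattractant protein 1, had 250.1, 246 and 157 TPM, a mean of 218 ± 52.6. Ccl12 (ENSMUSG00000035352.3, 82101845 to 82103400, plus strand), a mouse relative of Ccl2, had 128, 112 and 71.9 TPM, a mean of 104 ± 29.0. All 3 genes were lowest in replicate 3 and highest in replicate 1 on this scale. Ccl7 exceeded Ccl2 in each library, by a log2 ratio of 0.26 ± 0.10, although their ranges overlapped. The range of Ccl7 also overlapped that of Ccl4, which was above it in each library by 0.60 ± 0.20.

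The rodent Ccr1 ligands were Ccl9, which lay between Ccl2 and Ccl12 in level, and Ccl6, which lay below Ccl12. Ccl9 (ENSMUSG00000019122.8, chromosome 11, 83572919 to 83578636, minus strand) had 143, 135 and 132 TPM, a mean of 137 ± 5.45. Its coefficient of variation over libraries was 3.99%, against 14.1% to 35.5% for the other 8 detected ligands. On TPM rescaled to the same total over nuclear protein-coding genes, it was 6.41% for Ccl9 and 6.84% for Ccl5. The other detected ligands then had 12.8% to 27.5%. Before rescaling, the coding transcript of Ccl9 alone varied more than the gene, at 69.2 ± 10.4 TPM. After rescaling it varied less, at 232 ± 10.6 against 463 ± 29.7 for the gene. Ccl6 (ENSMUSG00000018927.3, 83587882 to 83593087, minus strand) had 52.6, 36.2 and 34.8 TPM, a mean of 41.2 ± 9.87, with replicate 1 apart from the other two. Ccl2 was above Ccl9 by a log2 ratio of 0.64 ± 0.34, and Ccl12 was below it by 0.43 ± 0.39. Both ratios kept their sign in 3 of 3 libraries, and the ranges did not overlap. By read-based TPM, summed over the transcripts of each gene, the ranges of Ccl2 and Ccl9 did overlap. There Ccl9 was above Ccl2 in replicate 3, at 61.4 against 57.6 TPM, and the mean log2 ratio of Ccl2 to Ccl9 was 0.33. The place of Ccl9 rests on a short transcript, and counting protein-coding transcripts alone put it below Ccl12, as given with the transcripts.

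The Ccr4 ligands were at the bottom. Ccl22 (ENSMUSG00000031779.3, chromosome 8, 94745590 to 94751699, plus strand), the macrophage-derived chemokine, had 1.93, 1.21 and 1.35 TPM from 212, 194 and 178 counts, a mean of 1.50 ± 0.382. Ccl6 exceeded it by a log2 ratio of 4.07 ± 0.13 after adding 1 to each TPM, an addition that shrinks the ratios of low genes. With a pseudocount of 0.1 that ratio was 4.69. Ccl22 did not meet a threshold of 2 TPM, nor 1 TPM in the read-based table, where its mean was 0.579 TPM. Thus 8 of the 10 genes were detected under either alternative. Read-based TPM was lower for the other ligands too, with a mean of 1747 for Ccl5 in place of 4714. A cut of 1 TPM is therefore stricter there. On TPM rescaled to the same total over nuclear protein-coding genes, mean Ccl22 was 4.86 in the read-based table and 4.996 in the gene table. Ccl17 (ENSMUSG00000031780.2, chromosome 8, 94810453 to 94812036, plus strand) had 0, 1 and 0 counts. A count of 0 allows up to 3 counts at 95% confidence, or 0.183 TPM in replicate 1 and 0.157 TPM in replicate 3, covering counting error only. Ccl17 was not detectable at this depth, while its neighbour on the chromosome was.

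In all, 8 of the 9 neighbouring pairs in the order of levels kept their sign in every library, and for 6 of them the ranges did not overlap. An exact sign-flip test over 3 libraries cannot go below p = 0.25, so no p is given for single ratios. The order of Ccl2 and Ccl9 did not hold in every library by read-based TPM, as given with Ccl9. It also depends, as does that of Ccl12 and Ccl6, on dividing by length. On expected counts Ccl9, with 12130 to 15632 counts, was above Ccl2, with 6199 to 11832, and the log2 ratio of Ccl2 to Ccl9 was -0.67. Ccl6, with 2714 to 3454 counts, was likewise above Ccl12, with 1476 to 2860, at a log2 ratio of Ccl12 to Ccl6 of -0.51. The main coding transcripts of Ccl9 and Ccl6 are 3006 and 1440 bases long and that of Ccl12 is 537.

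Chromosome 11 carries 8 of the genes in clusters, and the level varied steeply between neighbours. In the cluster that starts at Ccl2, Ccl7 follows after 8258 bases, and between Ccl7 and Ccl12 lies the eosinophil attractant Ccl11 at 0.00667 TPM. Ccl8, a ligand of Ccr8 in mouse, lies past Ccl12 and had 159, 159 and 104 TPM. Ccl1, at the end of the cluster, had no count in any library. In the cluster that starts at Ccl5, all 5 genes were detected, from 41.2 TPM for Ccl6 to 4714 TPM for Ccl5. Ccl3 and Ccl4 lie 13228 bases apart there, on opposite strands, and had nearly equal mean levels. Ccl2 overlaps the antisense gene Gm17268, which had 0 counts in all libraries, and Ccl6 overlaps the antisense E230016K23Rik, which had 7, 6 and 7 counts.

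**Figure D2:**
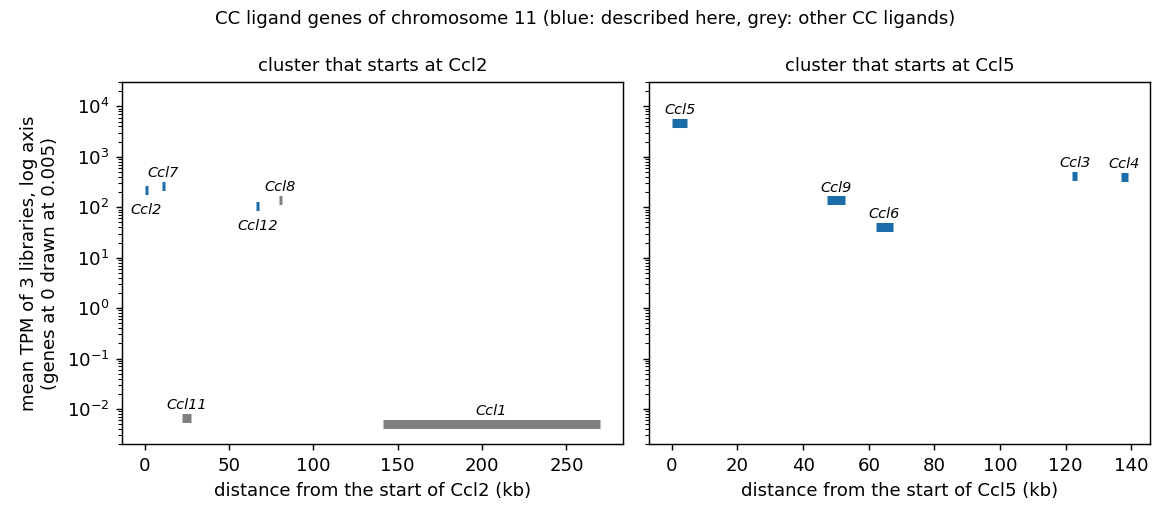
Mean TPM of 3 libraries, on a log axis, against distance in kb from the first gene of each chromosome 11 cluster. Bars span the annotated gene, blue for the genes described and grey for other CC ligands, and Ccl1 at 0 is drawn at 0.005. Ccl11 and Ccl1 sit near 0 among neighbours above 100 TPM, and none of the 5 genes drawn in the cluster of Ccl5 is below 41.2 TPM.

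The libraries were then compared on TPM rescaled to the same total over nuclear protein-coding genes, so that abundant non-coding RNA does not set the scale. Replicate 3 was the lowest library for 6 of the 9 detected ligands, where it was the lowest for 24.0% of 9106 detected nuclear protein-coding genes. Ccl3 had rescaled levels of 1648, 1585 and 953 in replicates 1, 2 and 3, and Ccl4 had 1653, 1424 and 952. Replicate 3 was 0.590 times the geometric mean of the other 2 for Ccl3 and 0.621 times for Ccl4. Only 0.560% and 0.813% of detected genes were lower than Ccl3 and Ccl4 in replicate 3 relative to their own mean.

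The Ccr2 ligands leaned the same way in rescaled level. Ccl2 had 751, 878 and 568, Ccl7 had 938, 969 and 707, and Ccl12 had 385, 399 and 259.9. For each the values of replicates 1 and 2 lay above that of replicate 3, at 0.700 times the other 2 for Ccl2, 0.742 times for Ccl7 and 0.664 times for Ccl12. The other CC ligand of that cluster, Ccl8, had rescaled levels of 477, 567 and 376, also lowest in replicate 3.

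Ccl5 and Ccl9 did not follow. The rescaled level of Ccl5 was 16281, 14630 and 16676, highest in replicate 3, and that of Ccl9 was 429, 481 and 478, lowest in replicate 1. Their log2 ranges over libraries, 0.19 and 0.17, were below the median of 0.24 over detected genes. The ranges of Ccl3 and Ccl4, 0.79 and 0.80, were above those of 97.0% and 97.2% of detected genes. Ccl6 and Ccl22 were between, with ranges of 0.32 and 0.35 and replicate 1 highest. Among macrophage markers 2 of 8, Fcgr1 and Cd14, were lowest in replicate 3 on the same scale. What sets replicate 3 apart was not tested.

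**Figure D3:**
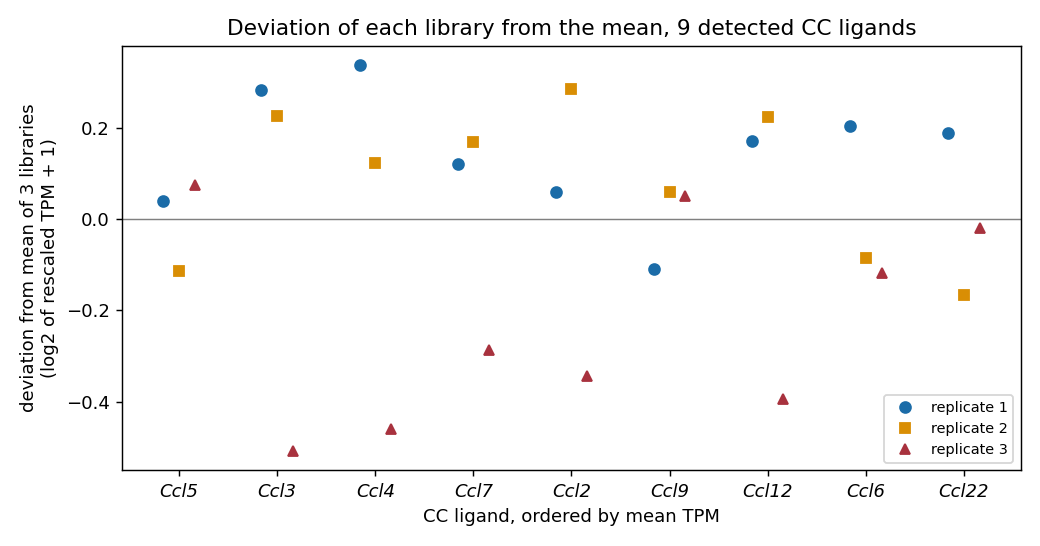
Deviation of each library from the mean of 3 libraries, in log2 of rescaled TPM + 1, for the 9 detected CC ligands in order of level. Replicate 3 lies at -0.29 or lower for Ccl3, Ccl4, Ccl7, Ccl2 and Ccl12, and at 0.07 for Ccl5 and 0.05 for Ccl9.

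The count of ligands lowest in replicate 3 moved little with scaling, but the background did. With TMM-normalized counts 7 of 9 were lowest there, beside 38.2% of detected genes, with DESeq2 size factors 7 beside 37.0%, and on TPM as deposited 7 beside 41.9%. By read-based levels 6 of 9 were, beside 20.95%. Over these scalings the replicate 3 deviation of Ccl3 ran from -0.60 to -0.49 and that of Ccl7 from -0.38 to -0.29, while that of Ccl5 ran from -0.02 to 0.07 and that of Ccl9 from -0.11 to 0.08. The sign of the last pair thus depends on the scaling.

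The biological coefficient of variation, the spread between libraries beyond counting noise, was estimated by edgeR on counts. Ccl3 had 0.225, Ccl22 0.219, Ccl4 0.215, Ccl12 0.189, Ccl2 0.181 and Ccl7 0.162. Ccl5 had 0.125, Ccl9 0.114 and Ccl6 0.0996. The median over 12752 genes was 0.144, so Ccl3, Ccl4, Ccl22 and the Ccr2 ligands were above it and Ccl5, Ccl9 and Ccl6 below it. The split depends on the reference. The value fitted for genes at the level of Ccl22 was 0.258, above its own, while the other ligands kept their side against such fitted values. Against the common value of 0.189 fitted to all genes together, Ccl3, Ccl22 and Ccl4 were higher, Ccl12 was nearly equal, and Ccl2 and Ccl7 were lower. Without replicate 3 the values of Ccl3, Ccl4 and Ccl12 were 0.115, 0.122 and 0.103.

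For each detected ligand the genes with the most similar deviations over the 3 libraries were sought among the other nuclear protein-coding genes (4129 for 8 ligands and 4130 for Ccl22), detected and with a mean TPM of 10 or more. With 3 libraries such a likeness is a description only. Closest to Ccl3 were Tnfaip3, which encodes the ubiquitin-editing enzyme A20, at a root mean square log2 difference of 0.0381, and Nfkbiz, an IκB family protein, at 0.0480. Closest to Ccl4 were Cd69, an early activation antigen, at 0.0243, and Pmaip1, a BH3-only BCL2 relative, at 0.0408. Only 22 genes lay within 0.1 of Ccl3 and 29 within 0.1 of Ccl4. Each was the other's closest CC ligand, at 0.0734.

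Closest to Ccl12 were the transcription factor gene Klf6, at 0.0103, and Gm6377, at 0.0236. Ccl7 was closest to the early response gene Ier5, at 0.0124, and to Plek, which encodes pleckstrin, at 0.0136. Ccl2 was closest to Fam20c, a secretory pathway kinase, at 0.00713, and to Mthfd2, a mitochondrial folate enzyme, at 0.0130. Within 0.1 lay 52 genes for Ccl12, 188 for Ccl7 and 57 for Ccl2. The flatter ligands had many genes alike. Those within 0.1 were 39.4% of genes for Ccl5, 40.5% for Ccl9, 12.5% for Ccl6 and 14.3% for Ccl22, so their closest genes, Tbl1xr1 and Ap1g1, Pdhb and Syap1, Sf3b6 and Aida, and Plekhm3 and Acaa1a, single out little.

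Annotated transcripts without a coding sequence changed what a gene level means for Ccl9 and Ccl6. In the alignment-based transcript table Ccl9-202, a processed transcript of 398 bases, held 43.3%, 51.7% and 53.7% of the Ccl9 TPM in replicates 1, 2 and 3. It held 4.78%, 6.55% and 6.75% of the Ccl9 counts. The share by TPM is larger because this transcript is far shorter than Ccl9-201, at 3006 bases. The effective length by which the Ccl9 counts were divided was 1661, 1442 and 1381 bases in the 3 libraries.

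The level of the coding transcript alone reads differently. Ccl9-201 had 80.9, 65.3 and 61.3 TPM, a mean of 69.2 ± 10.4. Coding Ccl12 had 125, 110 and 70.7 TPM, above Ccl9-201 in each library, and the log2 ratio of Ccl9 to Ccl12 was then -0.52. This was the only neighbouring pair whose direction turned when coding transcripts were used.

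For Ccl6 the retained-intron transcript Ccl6-202, which keeps intron sequence and has no coding sequence, held 30.3% of the TPM in replicate 1, and 5.06% and 3.99% in replicates 2 and 3. The coding transcript Ccl6-201 had 36.4, 34.4 and 33.0 TPM, a mean of 34.6 ± 1.69, against the SD of 9.87 for the whole gene. The higher Ccl6 level of replicate 1 thus lay in counts assigned to Ccl6-202. The read-based table gave Ccl6-202 42.0%, 36.5% and 30.0%, so the distance of replicate 1 from the others is that of the alignment-based table. The number of ligands lowest in replicate 3 stayed at 6 on coding transcripts, with Ccl9 in and Ccl6 out.

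The other ligands were almost all coding. Ccl5-202, a retained-intron transcript, held 0.830%, 0.282% and 0.538% of the Ccl5 TPM, and Ccl2-202, likewise, 2.70%, 1.19% and 3.11% of the Ccl2 TPM. Replicate 2 was lowest for both. The nuclear-retained RNAs Malat1 and Neat1 were also lowest in replicate 2, at rescaled levels of 4338, 1729 and 6241 for Malat1 and 263, 57.3 and 319 for Neat1. Ccl6-203, a retained-intron transcript with at most 6.23 counts, was lowest in replicate 2 too. Ccl6-202, with the largest retained-intron share, was instead lowest in replicate 3, where Malat1 and Neat1 were highest. The part of Malat1 and Neat1 in the shares was not tested. Ccl12-202, a processed transcript, held 2.77%, 2.03% and 1.60% of Ccl12. Ccl3, Ccl4 and Ccl7 have 1 annotated transcript.

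**Figure D4:**
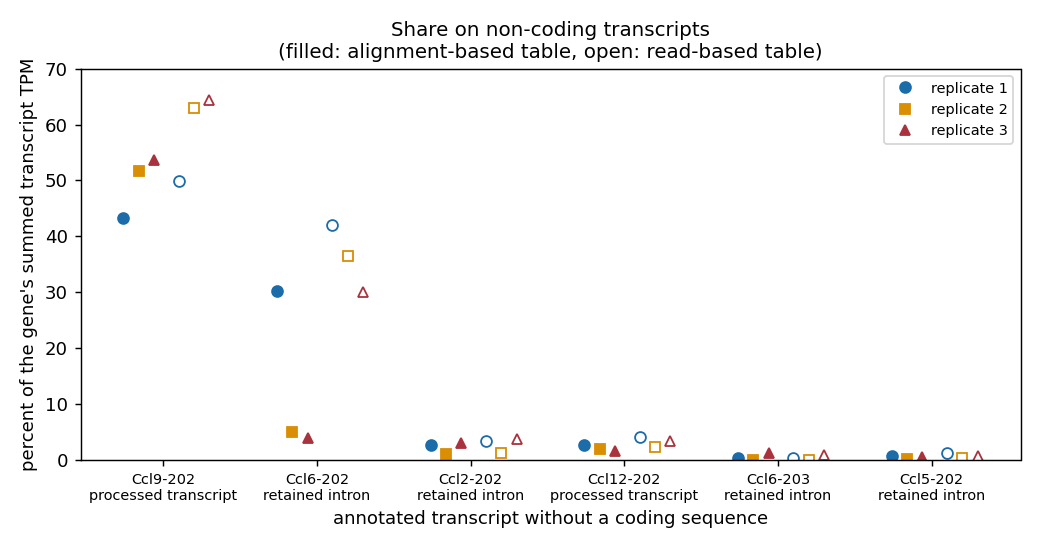
Percent of each gene's summed transcript TPM on annotated transcripts without a coding sequence, for the 6 with a mean share above 0.5%. Filled points are the alignment-based table and open points the read-based table, by library. Ccl9-202 lies above 40% in every library, and Ccl6-202 in the alignment-based table lies at 30.3% in replicate 1 and at 5.06% or lower in the others.

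Gene levels from the alignment-based gene table were set against sums of the read-based table, both rescaled over nuclear protein-coding genes. The difference in log2(TPM + 1), less the median difference of each library, was tested with limma over 9403 genes. Ccl9 was higher in the read-based table by 0.09, 0.30 and 0.23 in replicates 1, 2 and 3, a mean of 0.20 ± 0.046 (SE), and passed the test (limma, adjusted p = 0.0295). Ccl2 was lower by -0.14, -0.05 and -0.11, a mean of -0.10 ± 0.028, and also passed (limma, adjusted p = 0.0458). Of all genes tested, 22.4% were called higher and 14.5% lower, beside 1 ligand in each direction among 9.

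The other 7 did not pass. Ccl6 was at 0.14 (limma, adjusted p = 0.0592) and Ccl5 at -0.13 (limma, adjusted p = 0.0840). Ccl4, at -0.08, Ccl12, at -0.10, Ccl3, at -0.06, Ccl7, at -0.05, and Ccl22, at -0.06, had adjusted p from 0.0847 to 0.229. All 9 kept their sign in 3 of 3 libraries. The ligands with large non-coding shares, Ccl9 and Ccl6, were those with a positive difference. Whether the shares bear on the difference was not tested.

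The calls depended on which libraries and filters were used. Without replicate 3 the test called 14 of the genes in place of 3478, and neither Ccl9 (limma, adjusted p = 0.192) nor Ccl2 (limma, adjusted p = 0.219) passed. Without replicate 1 Ccl2 did not pass (limma, adjusted p = 0.270) and Ccl6 did (limma, adjusted p = 0.0164). Without replicate 2 Ccl4, Ccl5 and Ccl12 passed as lower (limma, adjusted p = 0.0204, 0.00273 and 0.0125) in addition to Ccl2 (limma, adjusted p = 0.0136), beside 1521 of all genes, and Ccl9 still passed as higher (limma, adjusted p = 0.0226). With no filter on low values neither passed (limma, adjusted p = 0.0687 for Ccl9 and 0.0545 for Ccl2). Without median centring 2299 genes were higher and 911 lower, in place of 2110 and 1368, and Ccl5 and Ccl6 passed too (limma, adjusted p = 0.0416 and 0.0221).

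**Figure D5:**
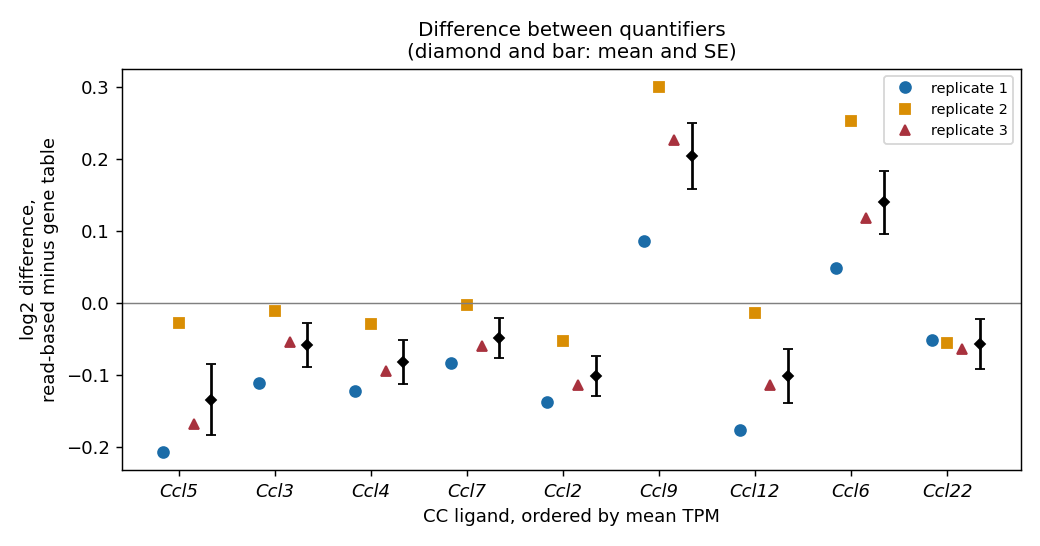
Difference in log2(rescaled TPM + 1), read-based minus gene table, less the median of each library, for the 9 detected CC ligands. Colored points are libraries, and diamonds with bars are the mean and SE. Ccl9 and Ccl6 lie above 0 in each library and the other 7 below 0.

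CC receptors, not all of them receptors of these ligands, were measured in the same libraries. Ccr1, the receptor of Ccl3, Ccl5, Ccl6 and Ccl9, had 4.72, 5.55 and 4.39 TPM. Ccr2, the receptor of Ccl2, Ccl7 and Ccl12, had 2.29, 2.16 and 2.27 TPM. Ccr7, which guides cells to lymph nodes, had 1.41, 0.63 and 1.00 TPM and so was not detected in every library. Ccl3, Ccl5, Ccl6 and Ccl9 were at higher TPM than Ccr1, and Ccl2, Ccl7 and Ccl12 at higher TPM than Ccr2, in each library.

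Of 4 atypical receptors only Ccrl2, a receptor-like protein that does not signal as the CC receptors do, was detected, at 137, 106 and 45.7 TPM. Its replicate 3 value was the lowest. Of the 11 other mouse CC ligands 2 were detected, Ccl8, given with the cluster, and the thymic ligand Ccl25 at 3.19 ± 0.597 TPM. The next was Ccl24 at 0.493 TPM.

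Among 7 proteases that can cut chemokines, Mmp14 and Mmp12 were detected, at 78.4 ± 24.1 and 4.11 ± 0.116 TPM, and the next was Mmp2 at 0.443 TPM. Of 6 proteoglycans and carriers 4 were detected, led by the cell-surface Sdc3 at 229.6 ± 30.6 TPM, the granule proteoglycan Srgn at 127 ± 12.2 TPM and Sdc4 at 103 ± 29.6 TPM.

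Factors of mRNA decay and stability, among them proteins that bind AU-rich mRNAs, were detected for 7 of 7 genes. The share detected over 22015 nuclear protein-coding genes was 41.4%. Zfp36, which encodes tristetraprolin, led at 399 ± 92.5 TPM, followed by its relatives Zfp36l1 at 75.5 ± 14.0 TPM and Zfp36l2 at 44.4 ± 10.2 TPM. The pentamer ATTTA, the core of AU-rich elements, was sought on the mRNA strand of the 3′ UTRs. It occurred in 8 of the 10 ligands. Ccl3, Ccl9 and Ccl12 held 5, Ccl6 held 4, Ccl4, Ccl7 and Ccl22 held 2, and Ccl2 held 1, while Ccl5 and Ccl17 held none. Of 6594 detected genes with 3′ UTRs of 167 to 2465 bases, the span of the ligands, 65.1% held it. The overlapping form ATTTATTTA was in none of the 10 and in 3.87% of those genes. Those genes were matched to the ligands by the span of 3′ UTR lengths and not by how lengths spread within it. The upper end of the span comes from Ccl9, and Ccl17, counted among the 10, was not a detected gene. The shares are therefore not strictly alike. A match describes the letters only.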

How the data were processed

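The 10 genes, the gene lists and the tests were chosen with earlier results of these data known. Of 3 tables per library, the deposited gene table, in the column layout of RSEM per the file headers, holds expected counts, TPM and FPKM per gene. A deposited transcript table in the same layout (alignment-based here) and another in the layout of kallisto (read-based here) hold estimated counts and TPM per transcript. Accompanying text names mm10 and annotation M21. The aligner and the quantifiers' versions: not given in the sources used here. FPKM was not analysed.

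Rows that name no gene held 0.104% to 0.356% of counts and were left out. Detection was a TPM of 1 or more in 3 of 3 libraries, and ratios used log2(TPM + 1). A count of 0 was taken to allow up to 3 counts. Spread came from an intercept-only edgeR 4.0.16 model (R 4.3.3) with TMM and filterByExpr, after rounding the expected counts. The quantifier difference was tested with limma 3.58.1, two-sided, with Benjamini-Hochberg adjustment over all genes tested, a threshold of 0.05 and a minimum mean TPM of 1. DESeq2 1.42.0 gave alternatives. No fit had a contrast between groups. Identity was from global alignments in Biopython 1.88. The scripts were tested on simulated data. Some list members are not reported here.

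Named genes were the 10 ligands, from each list the 3 highest by mean TPM and CC receptors with a mean of 1 or more, and the 2 genes nearest each ligand in library deviations at a mean TPM of 10 or more. Ccl1, Ccl11, Gm17268, E230016K23Rik, Malat1, Neat1, Fcgr1 and Cd14 were named after their values were seen. The levels and counts on coding transcripts, the transcript shares by table and the background under other scalings were added after seeing the data.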

Additional observations from a re-analysis of the deposited data

How the results depend on the processing

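Alternatives were thresholds of 0.5 and 2 TPM, pseudocounts of 0.1 and 5, filters, scalings, other tables and each library left out in turn. Of the alternative values, 304 counted as the same, 51 as moved, 5 as weaker, 7 as stronger and 3 as turned. Weaker and stronger mean a quantifier call lost or gained, and the same an unchanged call. For gene counts and coefficients of variation, the same means a change within a fixed factor. For replicate 3 deviations it means a change below 0.1, whatever the sign. For levels, ratios and transcript shares it means a change below the SD over libraries. Sign changes of the Ccl5 and Ccl9 deviations are therefore not among the 3. On expected counts without division by length, the log2 ratio of Ccl2 to Ccl9 was -0.67 and that of Ccl12 to Ccl6 -0.51, and on protein-coding transcripts alone that of Ccl9 to Ccl12 was -0.52. The number of genes that differ between quantifiers ran from 14 to 3815 with each library left out, against 3478, and with 14 left without replicate 3. The cause was not tested. No paired analysis was possible because there is 1 group. Depth limits Ccl17, and 3 libraries limit every spread.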
